A study of Homo sapiens with 2 samples.

Results

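Protein-coding genes also give rise to spliced and unspliced RNAs that are annotated as non-coding, and 1539 of 100792 deposited peaks in replicate 1 and 1659 of 109413 in replicate 2 had their summit in an exon of such an isoform and outside the main coding transcripts of the gene. A peak was taken when the gene named in it is protein-coding in GENCODE 29, when its summit lay in an exon of a retained intron, nonsense-mediated decay (NMD) or processed transcript of that gene, and when the summit lay in no coding sequence (CDS) or untranslated region (UTR) of the gene's basic protein-coding transcripts. Basic transcripts are the representative set that GENCODE tags for each gene. Peaks over small RNA genes were left out. No read count entered the choice.

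The study set out to map where in RNAs CCR4-NOT is recruited; this complex is the main cytoplasmic deadenylase and shortens poly(A) tails. It used HEK293T cells, a human embryonic kidney line, grown in DMEM with FBS and given doxycycline at 3 ug/mL for 24 h. Cytoplasmic RNA was extracted with Trizol and made into libraries with a Qiagen miRNA protocol. There were 2 libraries of 1 group, named TRACER replicates 1 and 2. What TRACER stands for and what doxycycline induced are not explained in the labels. No untreated or input library was analysed here, so a peak cannot be set against the level of its RNA. Nothing in the labels tells if each replicate came from a culture of its own, and the spread between them may be technical.

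A retained-intron transcript keeps an intron that the coding isoform removes, and many such RNAs stay in the nucleus. NMD transcripts carry a stop codon upstream of an exon junction, and translation in the cytoplasm marks them for decay. Some NMD isoforms include a poison exon, a stop-bearing exon by which splicing factors limit their own level. Processed transcripts are other spliced isoforms with no annotated reading frame. Read-through genes join exons of neighbouring genes in 1 transcript, which is often annotated as an NMD target.

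The following 30-nt stretches, read 5′ to 3′ from GENCODE transcripts, are centred on or near summits of regions found in both libraries. First come 4 of the regions with the most reads outside the exons of any other gene, from each of the 3 transcript types. Capitals mark a Pumilio element (UGUANAUA), to which PUM proteins bind and through which they recruit CCR4-NOT, or a GU repeat (UGUGUGU), and sequences without capitals held neither.
AMOT: agugaccagugguuggacucuuggcggcgc
PYGL: auauugaguauagggcaugucguguuuuga
GLOD4: accggcgcccgagccggcccuggcggaggg
ATP2A2: UGUGUGUuuuguaaaaucUGUAAAUAgcac
The ATP2A2 stretch holds both motifs. It came from a region at chr12:110347564-110347616 (GRCh38, plus strand) in an intron that an NMD and a retained-intron transcript keep.

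Next come the other 4 regions found in both libraries whose 51-nt window around the summit held a Pumilio element (in capitals), outside other genes' exons. They are shown as the complete set at that setting and were picked after their values were seen.
SRGAP2: uaggauacugcUGUACAUAuuguuuuacaa
GPATCH8: ugguggcuuugUGUAAAUAuguuugcccua
KIAA1841: acauguauuuuUGUAUAUAuauauauauag
SDCCAG8: uauuuuuucucUGUAGAUAgucuucaucua
A last set of 3 regions, also picked after their values were seen, held a pair of G runs (GGGNNNGGG, in capitals). The motif is described further on. UNC93B1 lay in an intron that a retained-intron transcript keeps, and TIAL1 and SBF2 in exons that extend an exon of a basic coding transcript.
UNC93B1: ccccuguGGGCCAGGGuccccccggcgggg
TIAL1: uguccggagcGGGCUGGGGggagagagccc
SBF2: agagaagguaGGGGUUGGGgaucagggagg

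Summed over its peaks, replicate 1 held 1624888 reads and replicate 2 held 1704925, and a read can count in more than 1 neighbouring peak or gene. Sequencing depth is not given in the sources used here. Peaks in non-coding isoform exons held 15162 reads in replicate 1 and 17323 in replicate 2, in 672 and 697 genes. They made up 1.52% ± 0.00752 of peaks and 0.975% ± 0.0587 of reads (mean ± SD, n = 2 libraries). Their median was 5 reads and 25 nt in width in each library, and the highest peak had 159 reads in replicate 1 and 211 in replicate 2. MALAT1 and NEAT1, long RNAs that are known to stay in the nucleus, had 1096 and 267 peak reads in replicate 1 and 821 and 235 in replicate 2, so the RNA labelled cytoplasmic also held reads of such RNAs. Their part in the results was not tested.

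Most of these peaks lay in exons of a neighbouring gene as well. In replicate 1, 983 of the 1539 peaks and 12199 of the 15162 reads had the summit in an exon of another gene on the same strand, and in replicate 2 the same held for 1063 of 1659 peaks and 13939 of 17323 reads. The exon was coding sequence of the other gene for 72.2% of these shared peaks in replicate 1 and 72.6% in replicate 2, and its 3′ UTR for 14.0% and 14.2%. For 51.9% and 48.4% of them, a peak with the same position and reads was also listed under another gene name. Of the shared peaks, 72.9% and 73.9% were assigned to a gene with no basic coding transcript at all. The label "non-coding isoform exon" therefore describes the annotation of the named gene for these peaks, and most of the reads lie where another gene's mRNA is annotated.

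The 20 genes with the largest share of reads were all of this shared kind, apart from 1 region of AL365205.1 with 4 reads in replicate 1 and 6 in replicate 2. SENP3-EIF4A1, a read-through locus, had 1145 reads in replicate 1 and 1412 in replicate 2 within exons of EIF4A1, the helicase that unwinds mRNA during translation initiation. AP002990.1 had 1087 and 1010 reads within exons of EEF1G, a translation elongation factor subunit. These 2 pairs of genes alone held 14.7% of the reads of non-coding isoform exons in replicate 1 and 14.0% in replicate 2, and the leading 10 pairs held 26.9% and 26.2%.

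The next pairs likewise lay over genes with basic cell functions. AL365205.1 had 261 and 272 reads within exons of TOMM6, a subunit of the mitochondrial import pore. AC073283.3 had 200 and 326 within CALM2, which encodes calmodulin. AC005258.1 had 176 and 297 within OAZ1, the antizyme that limits polyamine synthesis. The highest single peaks sat in these loci. The AC073283.3 peak at chr2:47176439-47176508 (minus strand) had 159 reads in replicate 1 and 211 in replicate 2, and the AP002990.1 peak at chr11:62570968-62571109 (minus strand) had 111 and 147. AC135178.2 with RPL26, SERF2 with HYPK, AC015813.2 with SRSF1, HIST1H3J with HIST1H2AM and AL133352.1 with NDUFB8 completed the 10. Reads of HIST1H2AM are uncertain, because histone genes have near-identical copies.

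The rest of the 20 held smaller shares. MINOS1-NBL1 had 220 reads in replicate 1 and 198 in replicate 2, AC009133.6 (within PAGR1) had 165 and 308, and BOLA2-SMG1P6 had 167 and 222. AL121594.1 within PSMA6 and AC010132.3 within PSMA2, both loci over proteasome subunits, had 144 and 119 reads in replicate 1 and 157 and 112 in replicate 2. AL109811.4 overlapped TARDBP, which encodes the RNA-binding protein TDP-43, with 119 reads in replicate 1 and 176 in replicate 2. AC106886.5 (within SRCAP) had 181 and 165 reads, ATP6V1G2-DDX39B had 122 and 152, HNRNPUL2-BSCL2 had 141 and 170, and SYVN1 (within FAU) had 95 and 102. In each of these 10 genes the libraries were less than 2-fold apart.

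Some shared peaks lay in pseudogenes instead, 41 in replicate 1 and 49 in replicate 2. The CHCHD3 peak had 61 reads in replicate 1 and 75 in replicate 2 within the processed pseudogene AC008038.1. The ZNF90 peak had 39 and 33 reads within AC011447.1, and the VPS53 peak had 34 and 33 within RPS4XP17. Processed pseudogenes are near copies of spliced mRNAs elsewhere in the genome, so the source of these reads is uncertain.

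**Figure D1:**
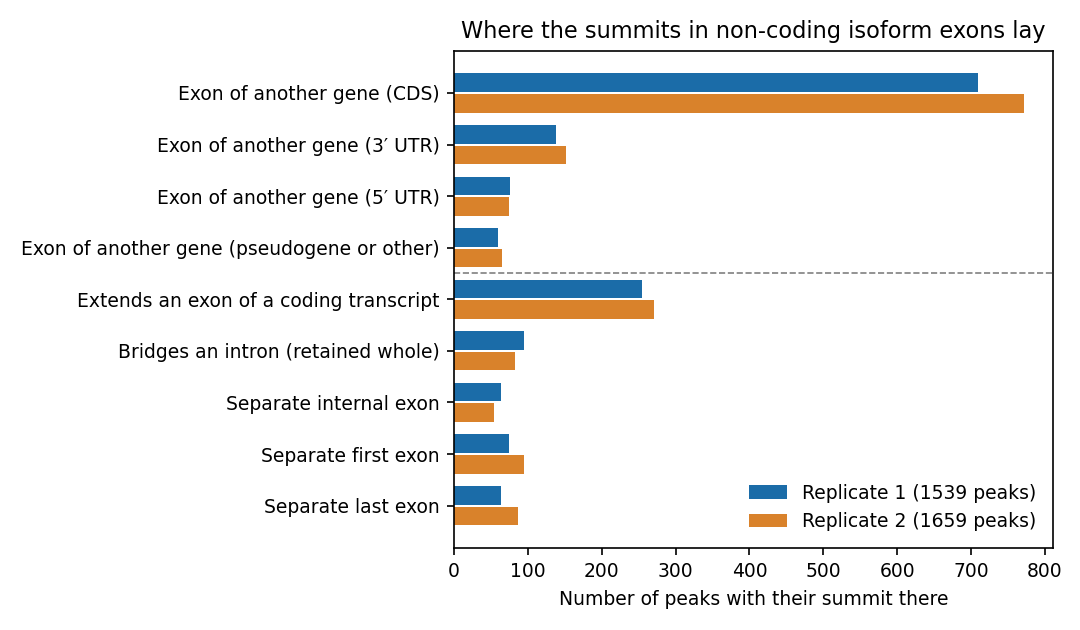
Number of peaks (horizontal axis, bars from 0) by where the summit lay, with 1 bar per library. Above the dashed line are summits in an exon of another gene, by part of that gene. Below it are summits in no other gene's exon, by place relative to the exons of coding transcripts. Of the latter, exons that extend a coding-transcript exon held the most, 254 in replicate 1 (45.7%) and 271 in replicate 2 (45.5%). Among the latter, the few peaks of single-exon transcripts or of genes with no coding transcript are not drawn.

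The 556 peaks of replicate 1 and 596 of replicate 2 that lay in no other gene's exon are called unshared peaks from here on. Of these, 62 in replicate 1 (11.2%) and 72 in replicate 2 (12.1%) lay in a coding transcript of the gene that is outside the basic set. All 556 and 596 unshared peaks together held 2963 reads in 417 genes in replicate 1 and 3384 reads in 427 genes in replicate 2. Unshared peaks were small, with a median of 4 reads and 21 nt, and 58.6% and 60.9% of them had 3 or 4 reads. Only 45 and 70 of them reached 10 reads.

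Unshared peaks were split between retained introns and processed transcripts, with fewer in NMD transcripts. Retained-intron transcripts held 48.2% of them in replicate 1 (exact 95% binomial interval 44.0–52.4) and 43.8% in replicate 2 (39.8–47.9). Processed transcripts held 47.5% and 49.5%, and NMD transcripts 19.1% and 20.6%. These shares add up to more than the whole, since 14.0% and 12.9% of the peaks lay in exons of more than 1 biotype. Among shared peaks NMD transcripts held 85.7% and 84.8%. Intervals here cover counting error only, and peaks of 1 library are not independent samples.

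Most unshared peaks lay in exons that extend or join exons of the coding transcripts, which also made up most of the sequence of the exons with such peaks. The summit lay in an exon that extends a coding-transcript exon for 254 peaks in replicate 1 (45.7%) and 271 in replicate 2 (45.5%), and in an exon that bridges an intron between 2 coding-transcript exons for 95 (17.1%) and 83 (13.9%). Separate first exons held 13.5% and 15.8%, separate last exons 11.5% and 14.6%, and separate internal exons, the class to which poison exons belong, 11.3% and 9.06%. These shares do not allow for length. Exons with unshared peaks held 20149 windows of 51 nt in replicate 1 and 21652 in replicate 2. Extensions held 10079 and 11174 of them, and bridged introns 4646 and 4181. Separate first exons held 1596 and 1808, last exons 2640 and 2883, and internal exons only 1065 and 1357. The internal class also holds other exons, among them those of several POLR2A regions described below. In retained-intron transcripts, 54.1% and 50.6% of the peaks lay in extensions and 29.1% and 27.2% in bridged introns. In processed transcripts, separate first exons held 24.2% and 24.7% and separate last exons 21.2% and 23.7%. In NMD transcripts, separate internal exons held 29 of 106 peaks (27.4%) in replicate 1 and 24 of 123 (19.5%) in replicate 2, against 7.84% and 5.75% in retained-intron transcripts. Of the unshared peaks in NMD transcripts, 62.3% in replicate 1 and 50.4% in replicate 2 lay in the part annotated as 3′ UTR, after the premature stop.

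Many of these summits lay close to an exon of the coding isoform. Among the 385 peaks of replicate 1 and 412 of replicate 2 whose summit fell in an intron of the coding transcripts, the median distance to the nearest coding-transcript exon was 245 nt and 259 nt. The summit was within 25 nt of such an exon for 20.5% and 19.4%, and within 500 nt for 65.2% and 61.9%. The nearer exon was the upstream one for 52.2% in replicate 1 and 61.4% in replicate 2. The peak itself reached into a coding-transcript exon for 72 peaks (12.9%) and 73 peaks (12.2%). For those peaks, reads of the coding isoform cannot be told apart from reads of the non-coding one.

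Peaks in non-coding isoform exons overlapped a peak of the other library (by at least 1 nt, on the same strand) for 57.7% in replicate 1 (55.2–60.2) and 52.2% in replicate 2 (49.8–54.6), near the 59.3% and 54.3% of all peaks of protein-coding genes. The unshared ones were found again less often, at 40.3% (36.2–44.5) and 35.2% (31.4–39.2), with intervals that did not reach those of peaks in coding sequence, at 60.6% and 53.4%. The unshared peaks were also smaller, so the classes are set side by side within bins of reads. At 10 to 49 reads, 91.1% of unshared peaks in replicate 1 (78.8–97.5) and 87.0% in replicate 2 (76.7–93.9) were found again, against 91.4% and 85.2% of peaks in coding sequence. At 5 to 9 reads the values were 58.9% (51.5–66.1) and 46.6% (38.8–54.6), against 64.2% and 53.4%. At 3 or 4 reads they were 22.7% (18.3–27.6) and 20.1% (16.1–24.6), against 35.4% (34.7–36.1) and 25.8% (25.2–26.4). Below 5 reads, then, the intervals were apart from those of coding sequence in both libraries. Peaks of 3 or 4 reads in the other introns were found again for 26.8% (25.3–28.4) in replicate 1 and 34.6% (32.8–36.4) in replicate 2. Against these, the intervals of unshared peaks overlapped in replicate 1 and were apart in replicate 2.

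**Figure D2:**
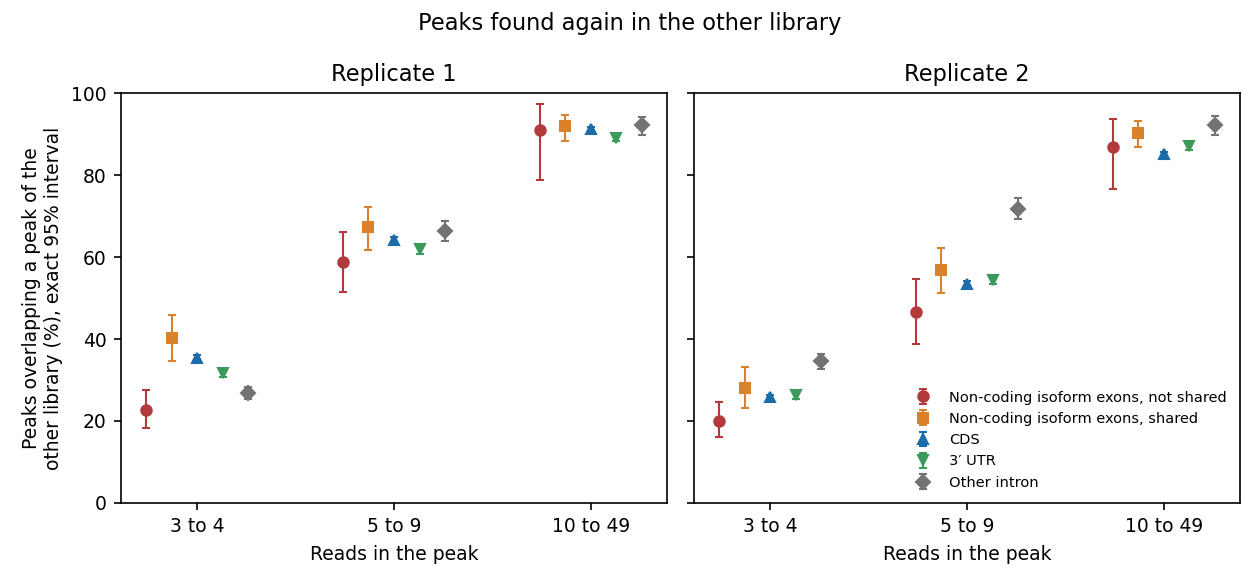
Percent of peaks that overlapped a peak of the other library (vertical axis) by reads in the peak (horizontal axis), for unshared peaks in non-coding isoform exons and for the other classes of peak, 1 panel per library, with exact 95% binomial intervals. Unshared peaks of 3 or 4 reads were found again for 22.7% in replicate 1 and 20.1% in replicate 2, and those of 10 to 49 reads for 91.1% and 87.0%.

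Overlapping peaks of both libraries were merged into 2353 regions, of which 743 were present in both. These lay in 354 of the 11355 protein-coding genes with peaks in both libraries, or 3.12%. Unshared peaks gave 954 regions, 175 of them in both libraries (18.3%, 15.9–20.9), in 145 genes, or 1.28%. Shared peaks gave 1399 regions, 568 of them in both (40.6%). Of the 175 unshared regions, 53 had more reads in replicate 1, 87 had more in replicate 2 and 35 had equal reads. In 24 of them the libraries were over 2-fold apart.

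Reads of at least 10 in the highest peak of each library were reached by 27 unshared regions, against 247 shared ones. AMOT, which encodes angiomotin, a scaffold of Hippo signalling, had the most, with 38 reads in replicate 1 and 42 in replicate 2 at chrX:112825117-112825223 (minus strand). The AMOT peak lay in an extension annotated in a processed transcript and also touched the coding-transcript exon. SRGAP2, a GTPase-activating protein, had 21 and 32 reads at chr1:206205428-206205526 (plus strand). Its reads are uncertain, because the genome holds near-identical copies of SRGAP2.

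**Figure D3:**
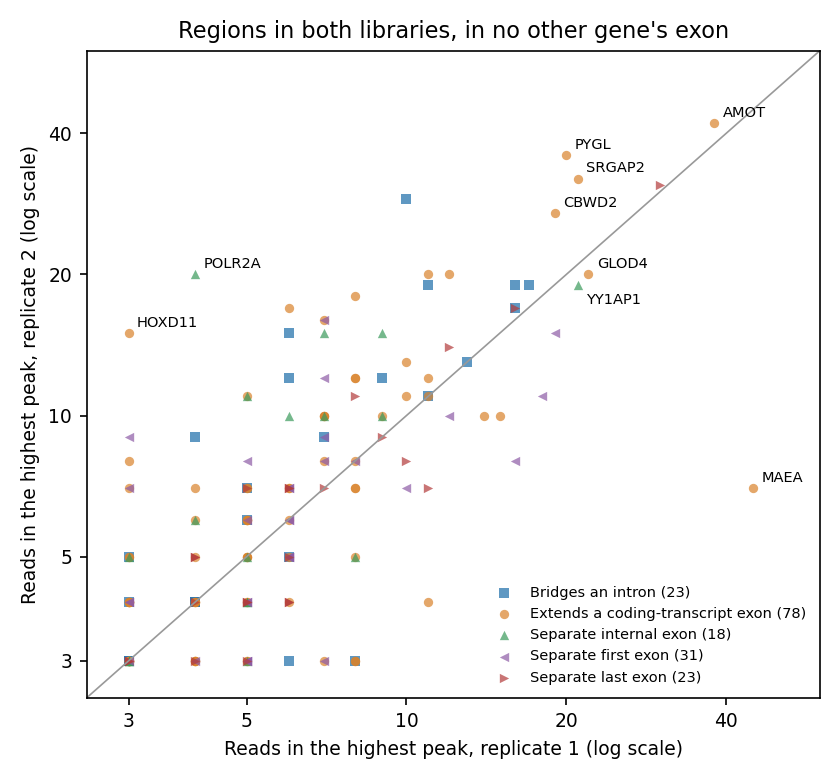
Reads in the highest peak of each of the unshared regions found in both libraries, replicate 1 (horizontal axis) against replicate 2 (vertical axis), both on log scales, with the symbol giving the kind of exon and the line marking equal reads. AMOT (38 and 42 reads) lay near the line, while MAEA (45 and 7) lay far from it; 2 regions of other kinds of exon are not drawn.

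Retained introns contributed a small set of well-read regions. PYGL, the liver form of glycogen phosphorylase, had 20 reads in replicate 1 and 36 in replicate 2 at chr14:50923836-50923910 (minus strand), 100 nt from the basic exon. CBWD2 had 19 and 27 reads at chr2:113443840-113443908 (plus strand), in a peak that touched the basic exon, and CBWD2 also has near-identical copies. Both libraries thus held both regions, with more reads in replicate 2. ATP2A2, the SERCA2 calcium pump, had 16 and 19 reads in the bridged intron shown above, 270 nt from the upstream exon. ECI2, an enzyme of fatty acid oxidation, had 13 and 13 reads at chr6:4126133-4126221 (minus strand), touching a basic exon. HM13, the signal peptide peptidase, had 11 and 20 reads at chr20:31548078-31548137 (plus strand), with its summit 27 nt from an exon of another gene, MCTS2P.

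Regions of NMD transcripts were of similar size. GLOD4 had 22 reads in replicate 1 and 20 in replicate 2 at chr17:782095-782126 (minus strand), where the stretch is rich in G and C. YY1AP1 had 21 and 19 reads at chr1:155679175-155679245 (minus strand), in a separate internal exon, the only one of that kind among the NMD regions named here. SETD2, the methyltransferase of histone H3 lysine 36, had 12 and 20 reads at chr3:47016609-47016691 (minus strand), touching a basic exon. NT5C3B, a nucleotidase, had 11 and 19 reads at chr17:41836127-41836200 (minus strand), likewise touching a basic exon. The libraries differed by less than 2-fold in each of these 4 regions.

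Among processed transcripts, RPL41, a ribosomal protein gene with many retrocopies, had 17 reads in replicate 1 and 19 in replicate 2 in a bridged intron at chr12:56116817-56116850 (plus strand). COPE, a coatomer subunit, had 16 and 17 reads in another bridged intron at chr19:18905647-18905672 (minus strand). CREB5, a transcription factor that binds cAMP response elements, had 16 and 17 at chr7:28410630-28410686 (plus strand). In a retained-intron transcript, THAP7 was the only 1 of the 27 regions with libraries over 2-fold apart, at 10 and 29 reads. MAEA, a subunit of an E3 ubiquitin ligase complex, was not among the 27, with 45 reads in replicate 1 and 7 in replicate 2 at chr4:1329917-1329955 (plus strand), and is named because those values stand apart. CREB5, THAP7 and MAEA were chosen after their values were seen.

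Further regions of the 27 are named here, chosen after their values were seen. VSIG10 had 18 reads in replicate 1 and 11 in replicate 2, and MGAT5, an enzyme that branches N-glycans, had 15 and 10. CREBZF had 14 and 10, SLC25A53 had 12 and 14, and VHL, the ubiquitin ligase subunit that targets hypoxia-inducible factors, had 12 and 10. PTPN11, the phosphatase SHP2, had 10 and 13, PSMA5, a proteasome subunit, had 11 and 12, and CIAO1, which helps to build iron-sulfur proteins, had 10 and 11. VPS72 and UNC93B1 each had 11 reads in both libraries, and SPEN had 19 and 15. In all of these the libraries lay within 2-fold of each other. By kind of exon, separate first exons had 31 of 133 regions in both libraries (23.3%, 16.4–31.4), extensions 78 of 437 (17.8%, 14.4–21.8) and bridged introns 23 of 154 (14.9%, 9.71–21.6), with intervals that overlap.

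Some peaks counted as non-coding through the basic tag or the transcript type alone. Of the 175 unshared regions, 154 lay in no coding transcript of any kind, while 6 lay in the CDS, 4 in the 3′ UTR and 11 in the 5′ UTR of a coding transcript outside the basic set. Of the 27 with at least 10 reads in each library, 23 lay in none, and among the others VPS72 lay in such a 3′ UTR, and SRGAP2 and SPEN lay in such a 5′ UTR. POLR2A, the largest subunit of RNA polymerase II, had 97 unshared reads in replicate 1 and 158 in replicate 2 out of 151 and 215 reads for the gene, and 9 of its regions were in both libraries. Its only transcript that reaches the gene's 3′ end, ENST00000617998.4 with 29 exons, is typed as a processed transcript in GENCODE 29. The basic coding transcript ENST00000572844.1 has 10 exons and ends at position 7499758 of chromosome 17. The 9 POLR2A regions had 4 to 8 reads in replicate 1 and 4 to 20 in replicate 2 in their highest peaks. Reads of POLR2A mRNA and of a non-coding isoform cannot be told apart there.

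SPEN, a transcriptional repressor, had 46 unshared reads in replicate 1 and 46 in replicate 2 in a separate first exon, out of 282 and 413 for the gene. Its 4 regions in both libraries, from the exon's 5′ side to its 3′ side, had 7, 19, 6 and 7 reads in replicate 1. In replicate 2 they had 8, 15, 5 and 9, and the same region was the highest in both libraries. The regions with 7 and 19 reads on the 5′ side lay in the 5′ UTR of a coding transcript outside the basic set. Those with 6 and 7 reads on the 3′ side lay in the CDS of such a transcript. BAZ2B, a bromodomain protein gene, had 57 and 56 of its 60 and 56 reads in these exons, and 41 and 29 of them were unshared. The remainder lay in the processed pseudogene AC009506.2, and the unshared BAZ2B regions lay in the same last exon as it. CREB5 had 38 and 70 of its 65 and 103 reads in unshared peaks, and its 3 regions found in both libraries lay in separate last exons. VSIG10 had all of its 18 and 11 reads in 1 region. Across the 357 genes of replicate 1 and 379 of replicate 2 with at least 10 peak reads and an unshared peak, the unshared peaks held a median of 8.51% and 7.5% of the gene's reads. They held 50% or more in only 19 and 21 genes.

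Per length of sequence, unshared summits were sparser than summits in coding-transcript exons and denser than those in the other introns. There were 36.0 summits per Mb of unshared non-coding exon in replicate 1 and 38.2 in replicate 2, against 2119 and 2392 in coding sequence, 1243 and 1323 in 5′ UTRs, 824 and 868 in 3′ UTRs and 5.54 and 4.80 in other introns of the genes with peaks. The order of these classes was the same in both libraries. When genes were put in 4 equal groups by reads in their basic coding-transcript exons, from fewest to most, the density of unshared summits was 31.6, 27.9, 37.9 and 46.7 per Mb in replicate 1 and 32.1, 30.2, 49.5 and 41.8 in replicate 2. In the group with the most reads the basic exons of a gene held 74 to 3947 reads in replicate 1, against 0 to 7 in the group with the fewest. The density of unshared summits thus differed by less than 2-fold between groups in each library. Level and length of the non-coding isoforms themselves were not measured, and fewer copies of an isoform and less signal per copy cannot be told apart.

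**Figure D4:**
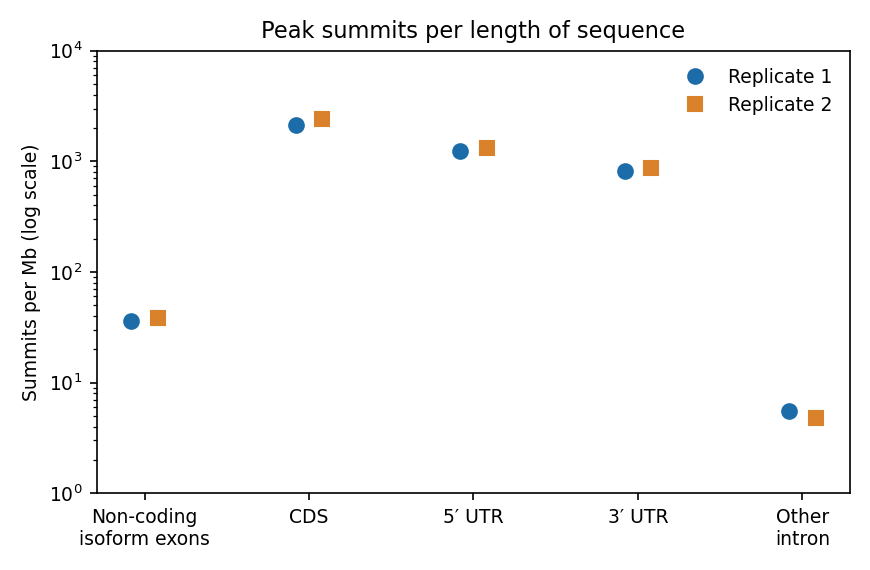
Peak summits per Mb (vertical axis, log scale) in unshared non-coding isoform exons, in the CDS and UTRs of basic coding transcripts, and in the other introns, with 1 point per library. Non-coding isoform exons had 36.0 summits per Mb in replicate 1 and 38.2 in replicate 2, between other introns and 3′ UTRs.

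Base composition around unshared summits differed from that of the exons they lay in. In 51-nt windows centred on the summit, 530 in replicate 1 and 566 in replicate 2, G+C was 53.9% and 53.6%, against 48.0% and 47.7% over all windows of the same length in the same exons. G alone was 31.7% in each library, against 24.7% and 24.4%. Summits in coding sequence, taken over all genes, had G at 30.7% and 30.9%. Coding windows of the genes with unshared peaks had 26.7% and 26.7%. Summits in 3′ UTRs of all genes had 25.8% and 26.1%, and 3′ UTR windows of the genes with unshared peaks 21.7% and 21.6%. For coding sequence and 3′ UTRs, summits and windows thus came from different sets of genes. With that limit, G was higher at summits in all 3 classes and cannot be called particular to non-coding isoforms.

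The 12 motifs searched, on the transcript strand only, were the Pumilio element, its reversed letters (AUANAUGU), the core UGUA that the Pumilio element contains, the AU-rich pentamer AUUUA, the GU repeat, the C-rich element CCUCCC, the poly(A) signal AAUAAA, the pair of G runs (GGGNNNGGG), the U run UUUUUU, the CU repeat CUCUCU, the splice-site element GUAAGU and the purine-rich motif GAAGAA. Of these, 2 stood above the exon windows in both libraries with intervals that did not overlap, the pair of G runs and GAAGAA. The pair of G runs was in 8.68% of unshared windows in replicate 1 (6.42–11.4) and 7.42% in replicate 2 (5.40–9.90), against 3.71% and 3.43% of all exon windows. Summits in coding sequence of all genes held it in 1.81% and 2.10%, against 1.65% and 1.6% of coding windows of the genes with unshared peaks. Summits in 3′ UTRs of all genes held it in 3.30% and 4.0%. Of 3′ UTR windows of the genes with unshared peaks, 2.40% and 2.25% held it. A higher share at summits than over windows was also found there, though across different sets of genes. Such G runs are known as intronic splicing elements and can fold into G-quadruplexes. GAAGAA, a purine-rich motif typical of exonic splicing enhancers, was in 4.34% (2.77–6.44) and 4.59% (3.02–6.66) of unshared windows, against 1.84% and 1.95% of all exon windows. It was in 9.25% and 8.54% of windows at summits in coding sequence of all genes. Coding windows of the genes with unshared peaks held it in 5.14% and 5.75%. With that difference in genes, GAAGAA was more frequent at summits in coding sequence too. In each library 1 further motif stood above the exon windows, the Pumilio element in replicate 1 and the GU repeat in replicate 2. The AU-rich pentamer and the C-rich element stood below them in replicate 2, and the other 6 overlapped in both libraries.

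The pair of G runs was most common in bridged introns. It lay in 20 of 93 windows there in replicate 1 (21.5%, 13.7–31.2) and 17 of 81 in replicate 2 (21.0%, 12.7–31.5). Windows across the very introns that held a peak had it in 62 of 1202 (5.16%, 3.98–6.56) and 49 of 973 (5.04%, 3.75–6.60). Extensions held it in 7.56% and 5.16% of windows, separate first exons in 8.82% and 9.30%, and separate internal exons in 0 of 63 windows and 1.85%. The median length of the bridged introns with a peak was 410 nt in replicate 1 and 389 nt in replicate 2, and a window can run into the neighbouring exon. G made up 36.1% and 35.6% of the bases at summits in bridged introns. Over windows of the introns that held a peak it made up 26.1% and 27.8%. Over all windows of the bridging exons it made up 25.6% in each library. How the motif relates to the share of G was not tested. Separate first exons had G at 35.1% in replicate 1 and 34.2% in replicate 2. Their motif intervals, 3.31–18.2 and 4.10–17.5, overlapped those of bridged introns. Extensions had G at 30.5% and 30.9%, and separate internal exons at 30.5% and 31.2%. Motif intervals of extensions and separate internal exons overlapped each other, at 4.54–11.7 and 0–5.69 in replicate 1. In replicate 2 they were 2.78–8.66 and 0.0469–9.89. In both libraries they lay below the intervals of bridged introns, 13.7–31.2 and 12.7–31.5.

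**Figure D5:**
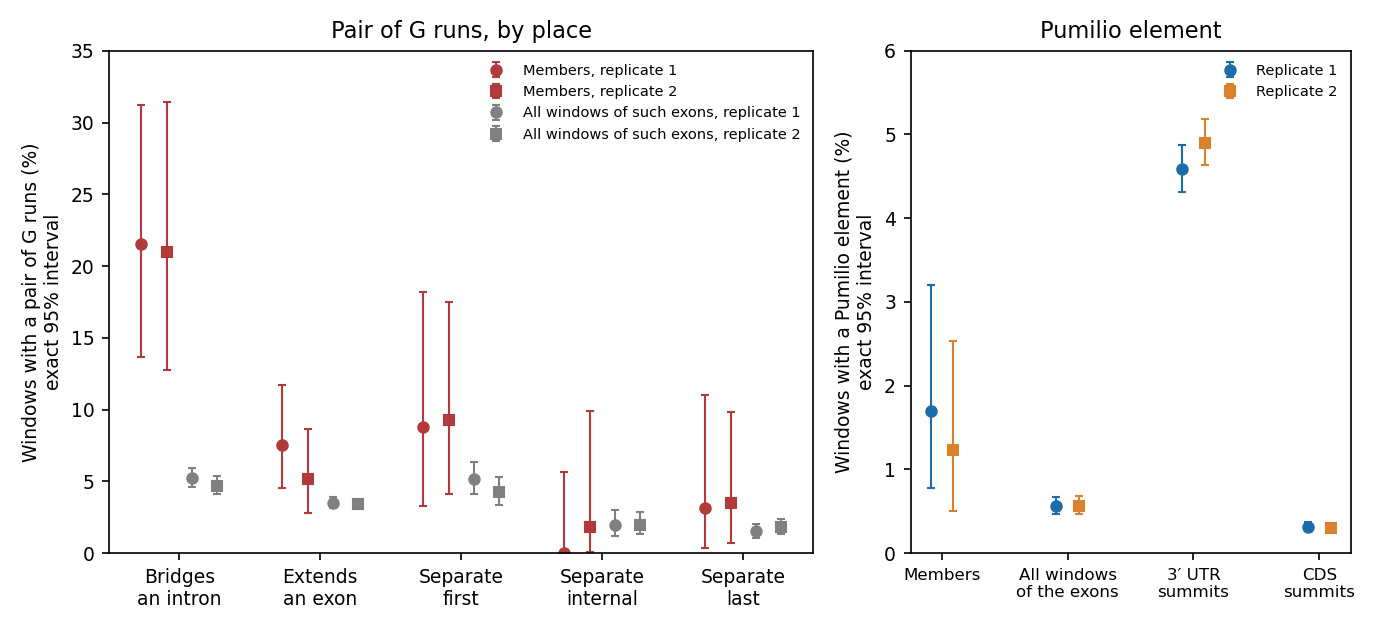
Left, percent of 51-nt windows (vertical axis) with a pair of G runs at unshared summits (members) and over all windows of the same kind of exon; right, percent with a Pumilio element at unshared summits, over all windows of the exons, and at summits in 3′ UTRs and coding sequence. Points are libraries and bars exact 95% binomial intervals; the pair of G runs reached 21.5% in replicate 1 and 21.0% in replicate 2 in bridged introns, and the Pumilio element 1.70% and 1.24% at unshared summits.

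The Pumilio element (UGUANAUA) was in 9 of 530 unshared windows in replicate 1 (1.70%, 0.779–3.20) and in 7 of 566 in replicate 2 (1.24%, 0.499–2.53), against 0.561% (0.462–0.674) and 0.568% (0.472–0.677) of all exon windows. The intervals were apart in replicate 1 and overlapped in replicate 2. Summits in 3′ UTRs of all genes held the element in 4.59% and 4.90% of windows. Of 3′ UTR windows of the genes with unshared peaks, a different set of genes, 0.972% and 0.937% held the element. Its reversed letters (AUANAUGU) overlapped the exon windows' interval in both libraries. The ATP2A2 region printed above had the most reads of the 5 with the element, at 16 in replicate 1 and 19 in replicate 2. SRGAP2 at chr1:206407825-206407867 (plus strand) had 6 and 7 reads, GPATCH8 at chr17:44396609-44396652 (minus strand) had 4 and 3, KIAA1841 had 3 and 4, and SDCCAG8 had 3 and 3. Apart from ATP2A2, the 5 regions thus rested on few reads. Among shared regions in both libraries 1 held the element, that of AL365205.1 at chr6:41789767-41789817 (plus strand) within TOMM6, with 75 reads in replicate 1 and 85 in replicate 2. A match is only a run of letters and does not show binding.

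The 3 regions shown with a pair of G runs were those with the most reads in the lower library among the 12 unshared regions in both libraries with this motif, of which the lowest had 3 reads in each library. UNC93B1, which carries Toll-like receptors to endosomes, had 11 reads in replicate 1 and 11 in replicate 2. TIAL1, the RNA-binding protein TIAR, had 7 and 16, and SBF2 had 7 and 10. These 12 regions were among the 175 unshared regions in both libraries.

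Genes known for regulated non-coding isoforms were then examined through lists of genes with peaks in both libraries. None of the 14 SR splicing factors, whose poison exons are well described, held an unshared region in both libraries, although 4 held a peak of either kind in 1 library or both. SRSF5 had 7 reads in replicate 1 and 0 in replicate 2, SRSF10 had 4 and 0, and TRA2B had 0 and 4. None of 28 hnRNP genes held any peak in a non-coding isoform exon. Splicing kinases had 1 of 9 (CLK3, 0 and 3 reads) and NMD factors 2 of 18 (EIF4A3 with 4 and 0 reads, NBAS with 0 and 3), none of them in both libraries. Over all 19969 protein-coding genes, of which 11355 had peaks in both libraries, 944 held such a peak, shared or unshared, in either library. The 944 can include genes without peaks in both libraries. The list counts of peaks of either kind were therefore not set against an exact background share. Among the 11355 genes with peaks in both libraries, 145 held an unshared region in both. Set against that background of 1.28%, a count of 0 in lists this short shows no difference.

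Of the other lists, 3 held a single gene with an unshared region in both libraries. Of 58 spliceosome genes, 11 held a peak in a non-coding isoform exon and only TIAL1 a region in both, with 15 unshared reads for the gene in replicate 1 and 20 in replicate 2, while SRRM2 had 4 and 6 and SNRNP200 had 0 and 9. Of 8 genes listed for known retained introns, OGT, the enzyme that attaches O-GlcNAc, had 7 and 9 reads at chrX:71547635-71547683 (plus strand), and TAF1D had 0 and 7. OGT is known to keep an intron when O-GlcNAc is high. Of 80 ribosomal protein genes, only RPL41 held one. Coding hosts of snoRNAs had 4 of 41 and none in both, with EIF4A2 at 16 and 0 reads and PTCD3 at 0 and 13. None of the 13 stress-related NMD targets held one. None of the 12 genes of CCR4-NOT subunits held one either. These genes had 2931 peak reads in replicate 1 and 4347 in replicate 2. Against the 1.28% of all genes with an unshared region in both libraries, 0 in lists of 12 or 13 genes shows no difference.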

How the data were processed

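Small RNA libraries were made from 2 samples of 1 group. The submitters' processing notes name cutadapt 4.2, UMI-tools 1.1.4, STAR 2.7.11 and GRCh38. The deposited peak files name CLIPper as the caller; of its version and annotation nothing is stated in the sources used here, nor of whether each read was placed at a single locus. Peaks were called per library, per the labels and files. Each deposited peak carries a p-value given by the authors' caller, which served only as a threshold of 1e-05 in 1 alternative. Reads per peak are the number inside the deposited peak name, at least 3.

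Gene IDs were matched without version to GENCODE 29 (19811 of 20048 found), and coordinates are GRCh38, counted from 1. The summit is the middle of the deposited thick interval. All rows were kept, as the rule asks, so a position listed under several gene names counts under each. Peaks on small RNA genes of the same strand were left out. Exons between coding-transcript exons were classed by whether they bridge an intron, extend an exon or stand apart. Regions merge overlapping peaks of both libraries on 1 strand and gene. Sequence windows of 51 nt were read from GENCODE transcripts and set beside all windows of that length in the same exons. Shares carry exact (Clopper-Pearson) 95% binomial intervals. No test was run, because 1 group of 2 libraries allows none. Scripts ran in Python 3.11.15 with numpy 2.4.6, scipy 1.17.1 and matplotlib 3.10.9. Class assignment was tested on simulated data, and 4000 of 4000 simulated summits, 722 of them in non-coding exons alone, were classed correctly.

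Named genes are the 20 with the most reads in regions of both libraries, 3 per gene list, any CCR4-NOT subunit, and 5 regions per biotype by the reads of the lower library, here taken among unshared regions. The members and lists were chosen with earlier results of these data known. The alternatives were other filters on reads and p, other summits, other transcript sets, other windows and each library alone. Results for some genes are not reported here.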

Additional observations from a re-analysis of the deposited data

How the results depend on the processing

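Values here are means over both libraries, for all peaks in non-coding isoform exons unless stated. Leaving out a replicate gives the other library's own value, which with 2 libraries cannot lie further than the SD from the mean and so tests nothing, and it gives no value for regions or genes in both libraries or for the share found again. As reported, these peaks were 1.52% of peaks and 0.975% of reads, 54.9% were found again, 743 regions and 354 genes were in both libraries, retained introns held 24.6%, NMD 61.7%, processed transcripts 27.3%, bridged introns 5.93% and internal exons 11.4%, 4.72% touched a coding-transcript exon, the median gene share was 15.6%, the Pumilio element was in 0.616% and G+C was 53.0%. With shared peaks left out the values were 0.548% of peaks, 0.190% of reads, 37.8% found again, 175 regions, 145 genes, retained introns 46.0%, NMD 19.9%, processed transcripts 48.5%, bridged introns 15.5%, touching 12.6%, gene share 8.01%, Pumilio element 1.47% and G+C 53.8%. With peaks of at least 10 reads they were 1.40%, 0.824%, 74.9%, 274 regions, 133 genes, 20.3%, 76.4%, 19.2%, bridged 3.51%, touching 3.53%, gene share 54.3% and G+C 52.6%. At a deposited p-value of at most 1e-05 they were 1.47%, 0.865%, 72.1%, 332 regions, 155 genes, 19.0%, 75.6%, 20.2%, bridged 3.14%, touching 3.44%, gene share 46.6% and G+C 52.6%. With small RNA genes kept they were 1.64% of peaks, 1.24% of reads, retained introns 27.8%, NMD 57.8%, bridged 9.02%, touching 4.44%, gene share 15.1% and G+C 52.6%. With coding transcripts outside the basic set added they were 1.73%, 1.06%, retained introns 21.6%, NMD 54.1%, processed transcripts 24.0%, internal exons 10.00%, gene share 14.6%, Pumilio element 0.860% and G+C 53.4%. With the whole peak outside coding-transcript exons they were 1.45% of peaks, retained introns 21.9%, NMD 64.0%, processed transcripts 27.8%, bridged 4.42%, touching 0 by construction and gene share 18.5%. With the middle of the whole peak as summit they were 1.49% of peaks, retained introns 23.0%, NMD 62.8%, processed transcripts 27.8%, touching 2.37% and gene share 17.1%. Requiring 50% of a peak to overlap gave 49.5% found again. The G+C share was 54.1% in 31-nt windows, 52.7% in windows wider by 50 nt than the 51 nt used, and 52.7% in regions of both libraries. The Pumilio element was in 0.925% of the wider windows and in 0.844% of windows in regions of both libraries. Dropping small RNAs on either strand moved none of these values beyond the SD. The causes of these shifts were not tested, apart from those the settings build in. Of the choices tried, leaving out shared peaks moved the most values. No paired analysis was possible because there is only 1 group. Most unshared peaks hold 3 or 4 reads, so depth limits which regions could be found in both libraries, and without an input library no value can be set against RNA level.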

Other observations

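Some peaks in non-coding isoform exons lay over small RNA genes and were left out of the peaks described above, except in the alternative that kept them. The totals of all peaks and reads of each library still include them. They numbered 127 in replicate 1 and 121 in replicate 2 and held 4808 and 4060 reads. Of these, 119 and 113 lay on snoRNAs, small RNAs that guide chemical modification of ribosomal RNA and sit in introns of host genes. They were found again in the other library for 116 of the 127 peaks and 115 of the 121. SNORA6, within an intron of RPSA, had 184 reads in replicate 1 and 119 in replicate 2. SNORD83B in RPL3 had 151 and 133, SNORA64 in RPS2 had 144 and 108, and SNORA67 in EIF4A1 had 123 and 129. Each of these exceeded the most reads of any unshared peak in a non-coding isoform exon, 45 in replicate 1 and 55 in replicate 2, although the 2 kinds of value differ, since a snoRNA's reads are summed over up to 3 peaks.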
